A study of Mus musculus with 6 samples.

Results

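Before each S phase a cell licenses its replication origins. CDC6 and CDT1 load the MCM2-7 helicase, a ring of 6 different subunits, onto DNA in an inactive form. Geminin, encoded by Gmnn, binds CDT1 and stops further loading once replication has begun, and MCM10 acts when the loaded helicase is switched on. In the small intestine most dividing cells lie in the crypts, the pits between the villi, and MCM proteins are widely used as markers of those cells. The genes described here are Mcm2, Mcm3, Mcm4, Mcm5, Mcm6, Mcm7, Mcm10, Cdc6, Cdt1 and Gmnn, taken by their known role in origin licensing, with earlier results of these data known. The array holds 14 probes whose accession maps to these 10 genes, out of 41006 probes and 12323 named genes.

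Crypts were cut by laser microdissection from frozen, haematoxylin-stained sections of the middle small intestine of 6 C57BL/6 mice aged 120 days. The 3 LOI(+) mice, from H19+/- mothers and wild-type C57BL/6J fathers, carried a maternally inherited deletion that removes H19 together with upstream DNA holding the differentially methylated region. Per the series' design this deletion activates the maternal Igf2 allele (loss of imprinting, LOI). The 3 LOI(-) mice, from the same kind of cross, were wild type, so loss of H19 itself and activation of Igf2 cannot be told apart here. Sex was male on the labels of 4 mice, and LOI(-) 3 and LOI(+) 2 had none. Each mouse had 1 array, with crypt RNA in Cy3 and a pooled reference RNA from cultured cell lines in Cy5. The dyes were not swapped, and many crypts of a mouse were pooled.

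Across the 6 arrays the median Cy3 signal was 552 to 603, while the negative controls had a 95th percentile of 439 to 449, and log2 ratios correlated across genes with r from 0.932 to 0.975 between arrays. Igf2 had log2 ratios of 0.16, 0.04 and 0.08 in LOI(-) and 0.07, 0.09 and 0.11 in LOI(+), which overlapped. It differed by -0.0026 ± 0.057 (SE), with a limma adjusted p of 0.996 and a Cy3 signal of 622 to 728. H19 was not analysed here, so the deleted gene does not check the group labels. Of 12 measured crypt stem cell markers, 11 were above the negative controls on all 6 arrays, among them Lgr5, the receptor that defines crypt base stem cells. All 17 villus enterocyte, 8 Paneth and 10 goblet cell markers measured were also above them on all arrays, as were all 10 fibroblast, 10 B and plasma cell and 11 myeloid markers and 11 of 12 T and NK cell markers. Being above the negative controls sets no cell type apart, since 36323 of the 37948 genes and unnamed probes had a probe above them on at least 3 arrays. Image extraction ran through the 3 LOI(-) arrays first, so its order and the group cannot be told apart.

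All 10 licensing genes had a higher mean in LOI(+) than in LOI(-) crypts, by 0.11 for Mcm2 to 0.56 for Gmnn on the log2 scale, which are folds of 1.08 to 1.47. The median of the 10 differences was 0.369, against 0.0026 over all 37948 genes and unnamed probes tested, of which 51.2% were above 0. No licensing gene passed Benjamini-Hochberg adjustment over all features in limma (0% of features passed, with 0.801 as the lowest adjusted p). Without adjustment, 8 of the 10 had a limma p under 0.05, all higher in LOI(+). By the same measure 6.16% of all features did, 3.92% higher and 2.23% lower, and 4.93% of named genes were higher. The 3 LOI(+) values lay above all 3 LOI(-) values for 7 of the 10 and below them for 0. That was so for 6.39% of all features and 6.72% of named genes above, and for 5.01% of features below. An unmoderated linear model also called 0 genes after adjustment, with 6 licensing genes at an unadjusted p under 0.05. In that model 3.19% of all features were higher at that level. The 10 genes were read in the same 6 mice and moved together. Over their 45 pairs Pearson r ran from 0.588 to 0.96, with a median of 0.84, both groups pooled. The counts of licensing genes above are therefore not counts of separate observations. With 3 mice a group, an exact permutation test of a single gene cannot go below p = 0.1. In bulk crypt RNA, more dividing cells and more RNA per dividing cell cannot be told apart.

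**Figure D1:**
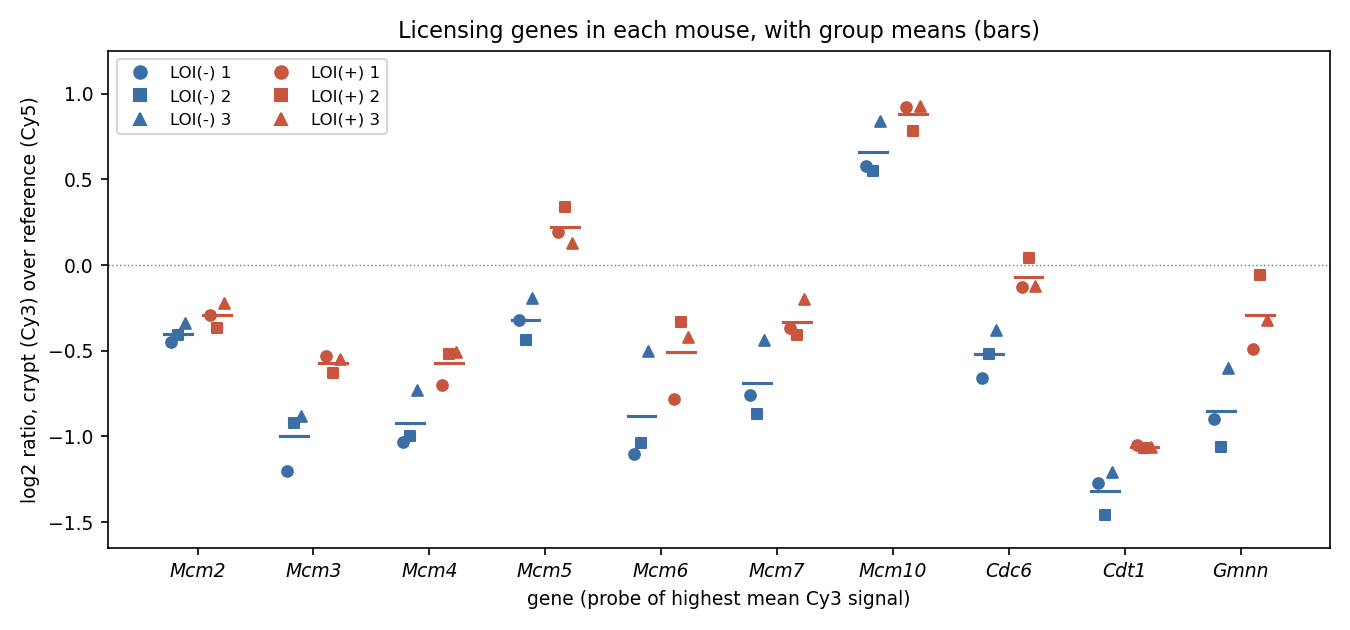
Log2 ratio of crypt RNA (Cy3) over reference RNA (Cy5) for the 10 licensing genes, with 1 point per mouse, LOI(-) in blue and LOI(+) in red, and a bar at each group mean. The groups do not overlap for Mcm3, Mcm4, Mcm5, Mcm7, Cdc6, Cdt1 and Gmnn, and LOI(-) 3 (blue triangle) is the highest LOI(-) mouse for all 10.

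The 2 loaders and their inhibitor were each read by 1 probe, and the capitals below mark the AATAAA polyadenylation signal where the probe holds one. The last 30 of the 60 letters are shown, since each of these probes holds that signal, has no forward frame free of stop codons, or has under 40% G and C.
Cdc6: aatggaatgatccaggaaaatttacgagcc
Cdt1: tagttttggcttttAATAAAgtcatgtaag
Gmnn: tgttaaaatacagatagtgtgtatttttaa

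Cdc6, the ATPase that joins the origin recognition complex and brings in the helicase, had log2 ratios of -0.66, -0.52 and -0.38 in LOI(-) and -0.13, 0.04 and -0.12 in LOI(+). The groups were 0.25 apart at their nearest mice, LOI(-) 3 and LOI(+) 1. The difference was 0.45 ± 0.0891 (SE), with a 95% interval from 0.24 to 0.66 and a limma p of 0.0015 before and 0.801 after adjustment over all features. The Cdc6 probe gave a Cy3 signal of 511 to 604, near the negative controls though above their 95th percentile on each array, and its difference stood at 0.16 without background subtraction and at 0.54 with a smaller normexp offset.

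Cdt1, the partner of CDC6 in loading, had log2 ratios of -1.27, -1.46 and -1.21 in LOI(-) and -1.05, -1.07 and -1.06 in LOI(+). The 3 LOI(+) mice were nearly alike, with an SD of 0.00959 against 0.132 in LOI(-), and LOI(-) 2 lay lowest. Cdt1 differed by 0.26 ± 0.0759 (SE), with a limma p of 0.0118 before adjustment. Its Cy5 signal was 13490 to 18410 and was not saturated on any array.

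Gmnn, whose protein holds CDT1 inactive after S phase has begun, had log2 ratios of -0.90, -1.06 and -0.60 in LOI(-) and -0.49, -0.06 and -0.32 in LOI(+). The ranges were only 0.11 apart although Gmnn had the largest difference of the 10 genes, 0.56 ± 0.148 (SE), because the mice also spread within each group. The 95% interval ran from 0.21 to 0.91, with a limma p of 0.00673 before adjustment. Without LOI(+) 2, the highest mouse, the Gmnn difference was 0.44. Loaders and inhibitor thus had differences of one sign, and the arrays measure RNA, not the protein levels by which CDT1 and geminin oppose each other.

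The 6 helicase subunits MCM2 to MCM7 form 1 complex in equal numbers. Their differences ranged from 0.11 to 0.54 with a median of 0.369. The mean of the 6 subunits, each centred on its own mean over the arrays, was -0.291, -0.258 and 0.00819 in the LOI(-) mice and 0.11, 0.204 and 0.226 in the LOI(+) mice. The subunit means of the groups therefore did not overlap, and LOI(-) 3 lay nearer to LOI(+) 1 than to the other LOI(-) mice. The 4 other licensing genes gave -0.24, -0.301 and -0.0163 against 0.134, 0.245 and 0.179, with the mice of the LOI(-) group in a like arrangement.

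Mcm5 had the largest difference of the subunits. Its log2 ratios were -0.32, -0.44 and -0.19 in LOI(-) and 0.19, 0.34 and 0.13 in LOI(+). With this probe crypt signal relative to the reference thus went from below to above 0. A second Mcm5 probe stayed below 0 in every LOI(+) mouse, at -0.22, -0.03 and -0.10. The place of 0 is open to dye bias without swaps. With the brighter probe the groups were 0.32 apart, the widest gap of any licensing gene. Mcm5 differed by 0.54 ± 0.0874 (SE), a fold of 1.45, with a 95% interval from 0.33 to 0.75 and a limma p of 0.000461 before and 0.801 after adjustment. The Cy3 signal of this brighter probe was 3091 to 7083.

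Mcm3 had log2 ratios of -1.20, -0.92 and -0.88 in LOI(-) and -0.53, -0.63 and -0.55 in LOI(+). The groups were 0.25 apart, with LOI(-) 1 lowest. The Mcm3 difference was 0.43 ± 0.0929 (SE), with a limma p of 0.00237 before adjustment.

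Mcm4, which with MCM6 and MCM7 forms the part of the ring that has helicase activity on its own in the test tube, had log2 ratios of -1.03, -1 and -0.73 in LOI(-) and -0.70, -0.52 and -0.51 in LOI(+). LOI(-) 3 and LOI(+) 1 were only 0.03 apart. The Mcm4 difference was 0.35 ± 0.101 (SE), with a limma p of 0.0109 before adjustment.

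Mcm7 had log2 ratios of -0.76, -0.87 and -0.44 in LOI(-) and -0.37, -0.41 and -0.20 in LOI(+). Here too the groups were 0.03 apart. The Mcm7 difference was 0.36 ± 0.12 (SE), with a limma p of 0.0187 before adjustment, and stood at 0.23 without background subtraction.

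Mcm6 and Mcm2 were the subunits whose groups overlapped. Mcm6 had log2 ratios of -1.10, -1.04 and -0.50 in LOI(-) and -0.78, -0.33 and -0.42 in LOI(+), so LOI(-) 3 was above LOI(+) 1. Its difference of 0.37 ± 0.184 (SE) was as large as that of Mcm7 with a wider spread, and the 95% interval ran from -0.06 to 0.81, with a limma p of 0.081 before adjustment. Without LOI(-) 3 the Mcm6 difference was 0.56, and without background subtraction 0.23.

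Mcm2 had log2 ratios of -0.45, -0.41 and -0.34 in LOI(-) and -0.29, -0.37 and -0.22 in LOI(+). LOI(+) 2 was below LOI(-) 3, and all 6 mice lay within 0.23. The Mcm2 difference was 0.11 ± 0.0635 (SE), with a 95% interval from -0.04 to 0.26 and a limma p of 0.133 before adjustment. It stood at 0.06 without background subtraction and at 0.17 in the Cy3 channel alone.

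Mcm10, which is not part of the ring and joins when the helicase is activated, was the licensing gene with ratios above 0 in every mouse. They were 0.58, 0.55 and 0.84 in LOI(-) and 0.92, 0.78 and 0.93 in LOI(+). LOI(-) 3 was above LOI(+) 2, so the groups overlapped. The Mcm10 difference was 0.22 ± 0.0925 (SE), with a limma p of 0.0478 before adjustment, and stood at 0.14 in the Cy3 channel alone and 0.36 in the 4 mice labelled male. Of the other 9 genes, all had a mean below 0 in LOI(-) crypts and 8 did in LOI(+) crypts, that is a lower signal in crypts than in the dividing cell lines of the reference, open to dye bias without swaps.

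**Figure D2:**
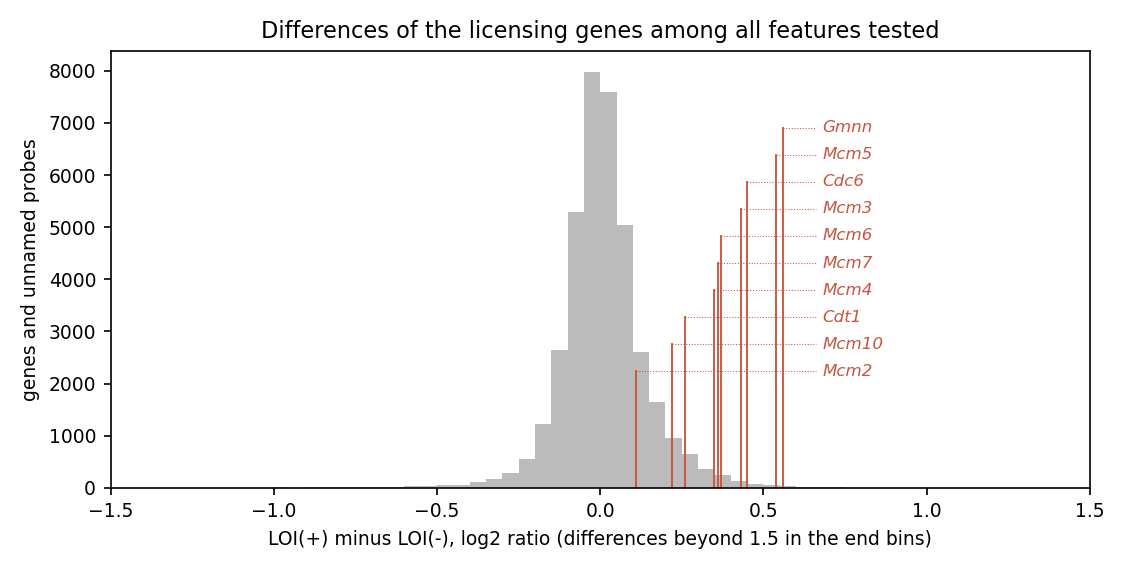
Histogram of the difference LOI(+) minus LOI(-) in log2 ratio over the 37948 genes and unnamed probes tested, with the 10 licensing genes marked by red lines whose height only spaces the labels. The lines run from 0.11 for Mcm2 to 0.56 for Gmnn, and 1.23% of all features lie above the median of the 10.

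Mcm4, Mcm5 and Mcm7 were each read by more than 1 probe, and the probes of a gene did not give the same difference. The probe letters are shown because the reading of these subunits turns on which probe is used. They are given whole where a forward frame is free of stop codons, no AATAAA is present and at least 40% of letters are G or C, and otherwise as the last 30 of 60 letters, with AATAAA in capitals.
Mcm4 A_66_P134165: aggcagtattccactatataaacctcttct
Mcm4 A_66_P130365: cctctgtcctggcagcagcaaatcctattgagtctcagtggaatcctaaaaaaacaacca
Mcm5 A_66_P117261: ttgtatgtacagaggtAATAAAgcaattga
Mcm5 A_66_P126309: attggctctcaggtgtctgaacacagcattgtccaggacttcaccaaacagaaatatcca
Mcm7 A_66_P126149: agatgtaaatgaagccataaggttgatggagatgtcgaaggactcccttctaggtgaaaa
Mcm7 A_66_P133511: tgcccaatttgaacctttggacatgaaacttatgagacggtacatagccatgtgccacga
Mcm7 A_66_P124173: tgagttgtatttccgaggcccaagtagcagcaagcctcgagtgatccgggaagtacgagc

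In each gene the first probe listed was the brightest and was the one used above. For Mcm5 the AATAAA probe gave 0.54, while the other, at 766 to 1053 in Cy3, had log2 ratios of -0.47, -0.48 and -0.21 in LOI(-) and -0.22, -0.03 and -0.10 in LOI(+). That second Mcm5 probe differed by 0.27 ± 0.0937 (SE), with a limma p of 0.0227 before adjustment over all probes, and LOI(+) 1 was just below LOI(-) 3.

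For Mcm4 the second probe, at 571 to 638 in Cy3, gave -0.43, -0.51 and -0.52 in LOI(-) and -0.35, -0.41 and -0.55 in LOI(+). It differed by 0.05 ± 0.0708 (SE), with a 95% interval from -0.11 to 0.22, and LOI(+) 3 was the lowest of the 6 mice. The brighter Mcm4 probe, at 870 to 1307, had an interval from 0.11 to 0.58.

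For Mcm7 the second probe, at 530 to 610 in Cy3, differed by 0.09 ± 0.143 (SE). The third differed by -0.04 ± 0.0642 (SE) and its Cy3 signal of 452 to 476 lay close to the negative controls. The mean of all probes gave 0.14 for Mcm7, 0.20 for Mcm4 and 0.41 for Mcm5. With the smaller normexp offset the dimmer probes stood at 0.06 for Mcm4, 0.29 for Mcm5 and 0.12 and -0.05 for Mcm7. The brighter probes stood at 0.36, 0.53 and 0.38 with that offset. Over all 14 probes, 13 had a difference above 0 and 9 had a limma p under 0.05 before adjustment, all 9 higher, where 3.81% of probes were higher at that level. Whether the probes' position or brightness plays a part in their disagreement was not tested.

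**Figure D3:**
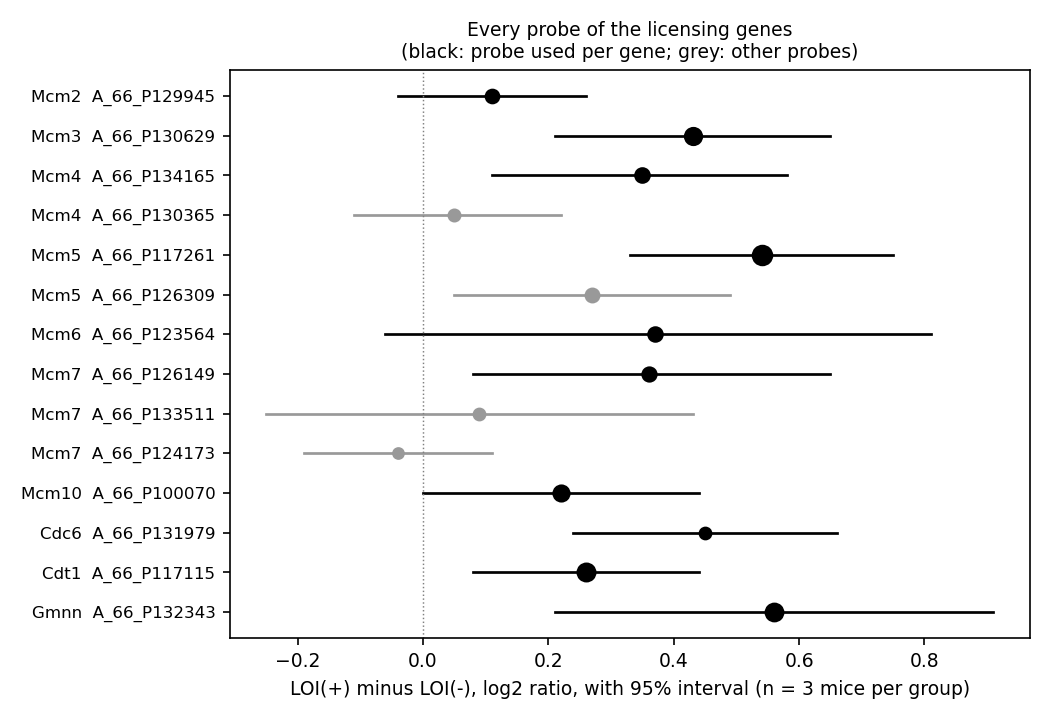
Difference LOI(+) minus LOI(-) in log2 ratio with its 95% interval (3 mice per group) for each of the 14 probes, black for the probe used per gene and grey for the others. Point area grows with the log2 of the highest Cy3 signal. The grey probes of Mcm4 and Mcm7 lie at 0.05, 0.09 and -0.04, against 0.35 and 0.36 for the black ones.

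The reference channel holds the same RNA on every array and gives a reading of array differences. Cy5 alone, quantile normalized, differed between the groups by -0.04 to 0.16 over the 10 genes. Of these, 0 of 10 had a limma p under 0.05, with a smallest unadjusted p of 0.184, and the share over all features was not counted. In Cy3 alone all 10 genes were higher in LOI(+) and 7 had an unadjusted limma p under 0.05, where 3.17% of all features were higher at that level. The difference of Gmnn was 0.60 in Cy3 alone and that of Mcm5 0.45, against 0.09 and -0.04 in Cy5 alone. For Mcm6 the values were 0.50 and 0.16, so its reference channel was also higher, with a Cy5 p in limma above 0.05. Cdt1 stood at 0.33 and 0.12. Mcm2 stood at 0.17 and 0.09, beside its difference of 0.11 in the ratio. In Cy5 alone Mcm5, Mcm10 and Cdc6 were slightly lower in LOI(+).

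Within the wild-type group, LOI(-) 3 was the highest mouse for all 10 genes, while LOI(-) 1 and LOI(-) 2 were each lowest for 5. The LOI(+) mice had no such order, with LOI(+) 2 lowest for 5 genes and highest for 4. Without LOI(-) 3 the median of the 10 differences went to 0.49. The lowest median without a single mouse was 0.30, without LOI(-) 2, where 6 of the 10 kept an unadjusted limma p under 0.05. Without that mouse, 2.42% of all features were higher at that level.

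The steps on either side of loading were read from a list of 24 genes of origin recognition and firing, of which 19 were measured. Of these, 18 had a higher mean in LOI(+), 5 were higher at an unadjusted limma p under 0.05 and 0 lower, and 0 passed over all features. At that unadjusted level 3.92% of all features were higher and 2.23% lower. The median difference was 0.162, below the 0.369 of the licensing genes, a gap that was not tested. Cdc7, the kinase that phosphorylates the loaded MCM ring, was at 0.32 ± 0.0913 (SE), and Orc6, a subunit of the origin recognition complex, at 0.40 ± 0.122. Mtbp, a partner of the firing factor Treslin, was at 0.29 ± 0.0671 and Donson, which helps assemble the active helicase, at 0.49 ± 0.162. These 4 did not overlap between groups, which follows largely from taking them for the smallest p of the list. Over all 19 measured genes, 5 lay higher in LOI(+) without overlap and 0 lower. Of all features, 6.39% lay higher and 5.01% lower without overlap.

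Cdc45, which joins the MCM ring and GINS to form the active helicase, was at 0.26 ± 0.105 (SE) and overlapped, and a second, dimmer probe was at 0.11. The largest subunit of the origin complex, Orc1, was at 0.20 ± 0.137, and Orc5 at 0.01 ± 0.0771. Dbf4, the activator of CDC7, was at 0.12 ± 0.0713. Neither Orc1, Orc5 nor Dbf4 reached an unadjusted p under 0.05, though the groups did not overlap for Dbf4. Cdc45 and these 3 genes were picked with their values in view.

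The second list held 18 genes that control licensing by protein destruction or by cyclin-dependent kinases, with 13 measured and a median difference of 0.131. Here 2 were higher and 1 lower at an unadjusted limma p under 0.05, beside 3.92% and 2.23% of all features. Cdkn1a, the p21 inhibitor of these kinases, was at -0.73 ± 0.116 (SE) and its other probe at -0.21. Ccne1, cyclin E1, was at 0.55 ± 0.107 and its other probe at -0.02. Fzr1, an activator of the ubiquitin ligase that marks geminin for destruction, was at 0.19 ± 0.0778, and Cdk1 at 0.30 ± 0.138 with another probe at -0.01. Dtl, which directs the destruction of CDT1, was at 0.0033 ± 0.056, a gene picked with its value in view.

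The third list, of genes that work at the moving fork, had 21 of 28 genes measured and a median difference of 0.271. Of these, 17 were higher, 8 of them at an unadjusted limma p under 0.05, and 0 were lower at that level. The shares of all features were 3.92% higher and 2.23% lower. Chtf18, of the loader of the PCNA clamp, was at 0.57 ± 0.118 (SE), Rpa1 and Rpa2, which coat single-stranded DNA, at 0.42 ± 0.0909 and 0.49 ± 0.122, and Tipin, of the fork protection complex, at 0.58 ± 0.134. Among mitosis genes, 22 of 24 were higher, 4 at that level, with a median of 0.198. The array means of the licensing genes lay at -0.275 to -0.0016 in LOI(-) and 0.12 to 0.22 in LOI(+), without overlap. Those of the other 3 replication lists and of mitosis overlapped, each with LOI(-) 3 at or above LOI(+) 1.

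**Figure D4:**
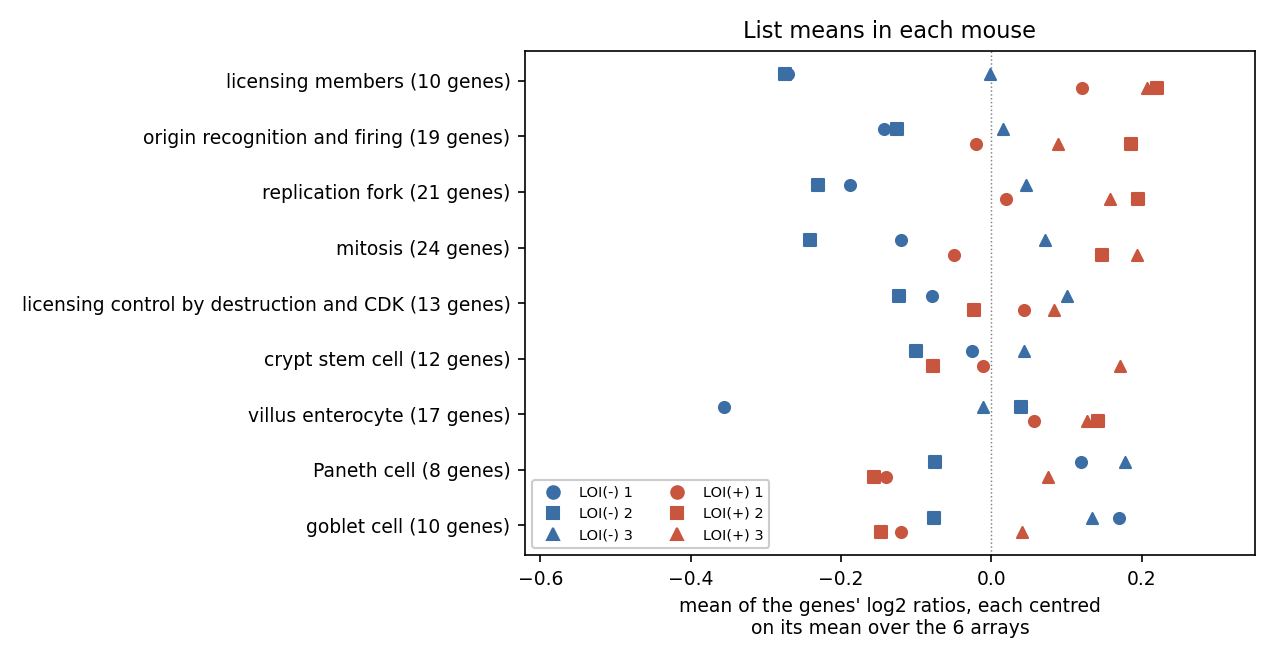
Mean log2 ratio of each gene list in each mouse, every gene centred on its mean over the 6 arrays, with LOI(-) in blue and LOI(+) in red. The licensing genes run from -0.275 to -0.0016 in LOI(-) and from 0.12 to 0.22 in LOI(+), villus enterocyte markers also do not overlap, and the groups overlap for the other lists shown.

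Villus enterocyte markers also differed in array mean without overlap between the groups, while the other marker lists overlapped, and the part of these cells in the licensing differences was not tested. Of 17 villus enterocyte genes 13 were higher in LOI(+), with mean levels by array of -0.355 to 0.0398 in LOI(-) and 0.0567 to 0.142 in LOI(+). Of 10 goblet cell genes 1 was higher, with mean levels by array of -0.0769 to 0.17 and -0.147 to 0.0403, and of 8 Paneth cell genes 2 were. The 12 crypt stem cell markers had a median difference of 0.0753, with 0 at an unadjusted limma p under 0.05 in either direction. The 14 enteroendocrine genes had one of 0.0412, with 3 higher and 1 lower at that level, beside 3.92% and 2.23% of all features. Smooth muscle, fibroblast, B, T, myeloid and endothelial lists had medians from -0.112 to -0.0407. An index of upper minus lower small intestine genes (4 and 5 measured), added after seeing the data, was -1.02, 0.37 and -0.32 in LOI(-) mice and 0.21, 0.29 and 0.47 in LOI(+) mice. It is not separate from the villus enterocyte list, which shares its upper genes Fabp1 (difference 0.74) and Rbp2 (0.64). The other upper genes, Bco1 (-0.1) and Slc40a1 (-0.16), were lower in LOI(+). The lower genes ran from -0.83 for Fabp6 to 0 for Amn. Mean Cy3 of the index genes ran from 458 for Bco1 to 8176 for Fabp1. Fabp6, Slc10a2 and Fgf15, at 475, 476 and 500, were also near the negative controls, and Fabp6 was above them on only 4 arrays. The index is thus a rough one, and a fit with it does not hold gut position equal. With that index as a covariate all 10 licensing genes stayed above 0, from 0.08 for Mcm2 to 0.63 for Gmnn. Of the 10, 5 had an unadjusted limma p under 0.05 where 8 had without it. Of all features, 3.2% were higher at that level with the index and 3.92% without it.

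The named genes outside the set whose 6 log2 ratios were most like the mean of Mcm2 to Mcm7 were Foxm1 (Pearson r = 0.996), Rpa2 (0.993), Hspa9 (0.989), Hirip3 (0.989) and Cdc7 (0.988). Foxm1 encodes a transcription factor of the cell cycle and Hspa9 a mitochondrial chaperone. These r are a description over 6 arrays that pools both groups, and 71 of 12231 genes had an r over 0.95. Foxm1 had log2 ratios of -0.18, -0.16 and 0.01 in LOI(-) and 0.08, 0.13 and 0.11 in LOI(+). LOI(-) 3 again lay between the other wild-type mice and the LOI(+) mice, which follows from picking the gene by its r.

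The promoters of licensing genes are known targets of E2F, the factors that switch on S phase genes, so the 250 bases before each promoter's annotated start were searched. RefSeq promoters (GRCm38.p6) were matched for 8 of the 10 genes in 9 windows. Some windows are not upstream of the gene. All 250 bases of the Cdc6 window and of 1 Mcm7 window lie inside the gene's annotated span. So do 228 bases of the other Mcm7 window and 41 of the Mcm5 window. Both strands were searched for E2F letters, which were TTCCCGC and its variant TTCGCGC as well as TTGCCGC and its variant TTGGCGC, and matches may overlap each other. At least 1 match was found in 5 of the 9 windows, of 4 genes, Mcm5, Mcm6, Cdc6 and Mcm7 (which has 2 windows), against 7.9% of all 32851 windows of that length. CCAAT was in 7 of the 9 windows and 33.8% of all, GGGCGG in 6 and 32.7%, and TTTGAA or TTCGAA in 2 and 17.1%. Mcm2, Mcm3, Mcm10 and Cdt1 had no E2F match in this window, which says only that these letters are not there.

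The sequences of Mcm5 and Mcm6, the genes with more than 1 match in a window, and of Mcm2, with none, are printed 5′ to 3′ on the gene's strand, with E2F matches in capitals. The Mcm5 window is shown up to the start of the gene's annotated span, 41 bases short of its end. These are chr8:75109259-75109467 on the plus strand, and chr1:128359706-128359955 and chr6:88898781-88899030 on the minus strand.
Mcm5: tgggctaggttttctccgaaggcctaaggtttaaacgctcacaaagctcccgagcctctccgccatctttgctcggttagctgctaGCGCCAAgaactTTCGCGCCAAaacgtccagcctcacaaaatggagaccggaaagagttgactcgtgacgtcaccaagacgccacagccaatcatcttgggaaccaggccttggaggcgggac
Mcm6: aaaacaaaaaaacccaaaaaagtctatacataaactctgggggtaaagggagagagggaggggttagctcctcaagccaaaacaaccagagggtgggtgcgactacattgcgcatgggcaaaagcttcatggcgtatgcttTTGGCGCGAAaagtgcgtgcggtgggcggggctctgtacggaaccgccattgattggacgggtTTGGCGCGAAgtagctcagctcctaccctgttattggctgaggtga
Mcm2: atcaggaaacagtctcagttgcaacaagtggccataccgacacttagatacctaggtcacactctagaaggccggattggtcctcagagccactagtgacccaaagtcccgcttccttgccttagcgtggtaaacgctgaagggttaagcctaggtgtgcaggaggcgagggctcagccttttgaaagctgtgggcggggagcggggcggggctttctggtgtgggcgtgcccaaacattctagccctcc

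Mcm6 has 4 matches in 2 overlapping pairs, starting 109, 106, 46 and 43 bases before the start site, and Mcm5 has 3, at 164, 152 and 149. Both TTCGCGCCAA in Mcm5 and TTGGCGCGAA in Mcm6 hold a match on each strand. Of all windows, 0.8% have 2 or more matches. Of these 2 genes, Mcm5 had the widest gap between the groups, while Mcm6 overlapped with a difference of 0.37, near the median of the 10 licensing genes. Whether E2F matches bear on the differences was not tested.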

How the data were processed

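The authors deposited each array's scanner output with Cy3 and Cy5 spot intensity. Per the file headers the software was Agilent Feature Extraction, with LOWESS parameters listed for its dye normalization. The authors also deposited a table on the log10 scale. It correlated at 0.998 or more on every array with the log10 ratio of processed signals (Cy3 over Cy5) shifted by each feature's mean reference level, and served as an alternative. How the authors centred it is not stated in the labels or headers.

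Mean signals were corrected with normexp (offset 50) in limma 3.58.1 (R 4.3.3) and normalized by loess within arrays, with control and outlier features at weight 0 and outlier values left out. Values are log2 Cy3 over Cy5. Accessions were matched to GRCm38.p6 RefSeq symbols for 37.5% of probes, and the probe of highest mean Cy3 stood for a gene. The 3 mice per group were compared with lmFit and eBayes, two-sided, with Benjamini-Hochberg adjustment over all features at 0.05, and every probe in a second fit over 41006 probes. The code was tested on simulated data.

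All members, the 4 genes of smallest p of each other replication list, and the 5 genes most like Mcm2 to Mcm7 are named by rule. Members and lists were chosen with earlier results of these data known. Alternatives changed the background correction, normalization, input values, filters, probe choice, model, replicate block and set of arrays (male labels, or 1 array less). Separate mice are the replicates.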

Additional observations from a re-analysis of the deposited data

How the results depend on the processing

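In each of the 23 alternatives all 10 licensing genes stayed higher in LOI(+) and 0 genes passed an adjusted p of 0.05 in limma or the unmoderated model. The median difference of the licensing genes was 0.232 without background subtraction, and 0.3 to 0.49 when 1 mouse was left out. The count of genes at an unadjusted p under 0.05 was 1496 to 3349 when 1 mouse was left out, lowest without LOI(+) 2 and highest without LOI(+) 1. The count of licensing genes at that level was 5 with the index of upper minus lower intestine, which was chosen after seeing the data, and 6 to 9 in every other alternative. Of all features, 3.2% were higher in LOI(+) at that level with the index, and 2.32% to 6.01% in the other alternatives. Deviations of same-numbered mice from their group means correlated at -0.0884, -0.248 and 0.353 for replicates 1, 2 and 3. With 3 mice a group these values cannot show whether replicate numbers pair the mice. With the replicate block 9 licensing genes and 2461 genes were at an unadjusted p under 0.05, and 4.49% of all features were higher at that level. The number of arrays limits precision, as does signal near background for Cdc6 and the dimmest Mcm7 probe.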
